A study of Arabidopsis thaliana with 18 samples.

Results

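The ATH1 array carries a run of consecutively numbered probe sets that was laid out largely for the genomes inside the organelles of the plant cell. All probe sets with an id in that run were taken, whatever their suffix, which gave 150 of the 22810 in the value table. By the names in the array's annotation, 77 of them carry plastid genes, 13 carry mitochondrial genes, 5 carry loci whose AT2G07 codes lie in the chromosome 2 copy of mitochondrial DNA, and 10 carry other nuclear genes of chromosome 2. The remaining 45 list no gene and are counted here without a name. The label of an organelle block therefore held only in part. Of the 77 plastid sets, 69 have 1 gene and 8 list copies of one gene, and of the 13 mitochondrial sets 12 have 1 gene. A filter on dim signals, which asked for the 40th percentile of an array on 3 or more of the 18, passed 127 of the 150: 76 plastid, 13 mitochondrial, 5 AT2G07, 5 other nuclear and 28 unnamed ones.

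The study compared 3 kinds of Arabidopsis thaliana cells grown in suspension culture: wt cells, a line in which estrogen switches on VND6, and a line in which it switches on SND1. Both are NAC transcription factors, VND6 of vessel formation, which ends in the death of the cell, and SND1 of the secondary walls of fibres. Each kind was sampled before (0 h) and 12 h into 2 µM estrogen, which the wt cells also received, with 3 arrays in each of the 6 groups. No culture was sampled at 12 h without estrogen, so estrogen and time cannot be told apart within a line, and the labels do not say whether the replicates of a group, or the lines, came from separate cultures or clones. Nothing says that the replicates are biological, so p-values here measure the spread among these arrays only, which may be technical. The VND6 and SND1 transcripts themselves were not analysed here. The trimmed mean signal was 500.045 to 500.058 on every array, which reflects the authors' scaling, and the median of an array lay between 103 and 133; with 3 arrays a group, their number limits the precision.

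Plastids and mitochondria descend from bacteria and have kept small genomes. The plastid genome encodes core subunits of photosystems I and II, of the cytochrome b6f complex, of the ATP synthase and of the NDH complex, the large subunit of Rubisco, and part of the plastid's own ribosome and RNA polymerase, and many of its genes are transcribed together in long units that are then cut. The mitochondrial genome of plants encodes a few subunits of the respiratory chain and proteins that mature cytochrome c, and all other subunits of these complexes come from the nucleus. Labelling kits of the kinds named in the labels start cDNA at a poly(A) tail, which most organelle transcripts of plants do not carry in a stable form, so a signal is no direct measure of the amount of an organelle transcript. The sets of AT2G07 loci can carry RNA of the mitochondrial genome or of its copy on chromosome 2, and these cannot be told apart. No sequences are printed, and a gene's place is given only as its neighbours in the RefSeq annotation of assembly TAIR10.1.

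Replicate 1 stood apart from replicates 2 and 3 in all 6 groups, and did so most among the organelle sets. It exceeded the mean of replicates 2 and 3 by more than 1 on the log2 scale in all 6 groups for 36 of the 127 tested members, or 28.3%, against 77 of all 15715 tested probe sets, which is 0.490%. These 36 were 30 plastid sets, 3 mitochondrial ones, 1 AT2G07 locus and 2 unnamed sets. Replicate 1 was lower by more than 1 in all 6 groups for 2 members, psbN and an unnamed set, against 12, or 0.0764%, of all tested sets. Over the members, the median size of the gap between replicate 1 and the other replicates was 1.17, and that between replicates 2 and 3 was 0.38; over all tested sets these were 0.43 and 0.18. Spearman's rho across the members was 0.845 to 0.898 between replicate 1 and either other replicate and 0.975 to 0.987 between replicates 2 and 3, as a description over genes of the same arrays. Per the labels 2 labelling kits were in use, split by array code, and no code is linked to a sample. The kit of a given array is not known, and its part in the gap was not tested.

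**Figure D1:**
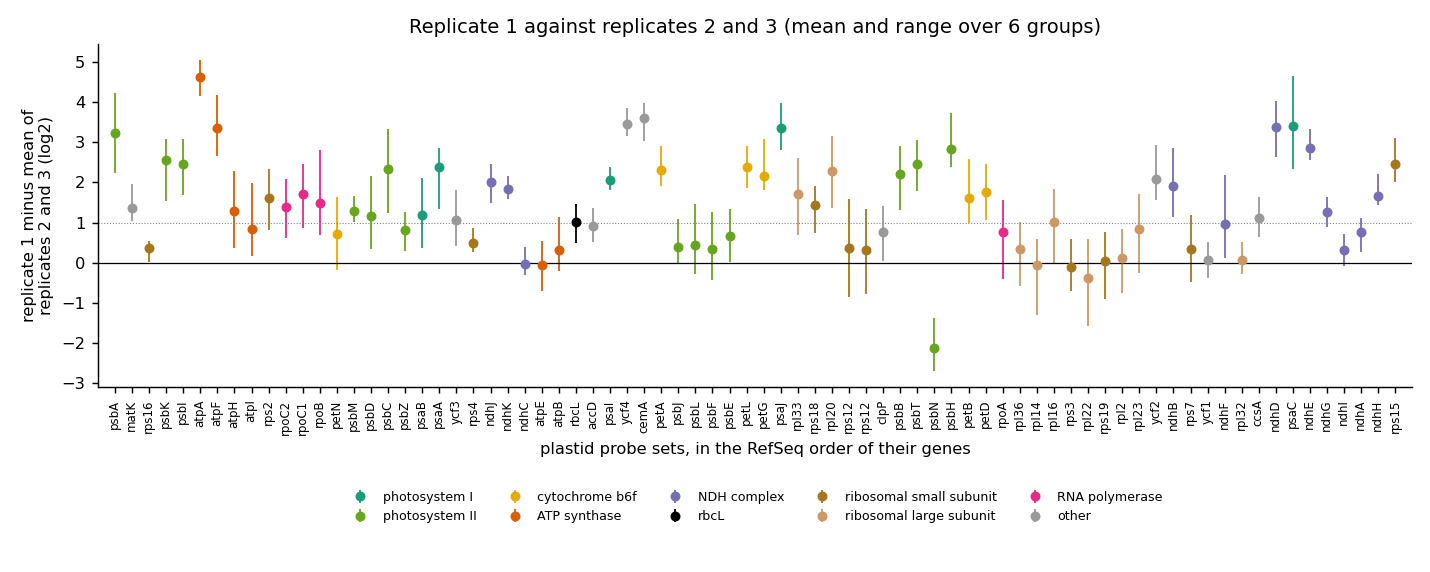
Each point is 1 tested plastid probe set, in the RefSeq order of the genes along the plastid genome; the y axis is the log2 signal of replicate 1 minus the mean of replicates 2 and 3, averaged over the 6 groups, and bars span the lowest and highest group. atpA stands highest at 4.62, and psbN is the one set whose bar lies wholly below -1.

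The genes named for this gap were chosen after their values were seen. The set of atpA, which encodes the alpha subunit of the plastid ATP synthase, read 6172, 308 and 228 in replicates 1, 2 and 3 of wt cells at 0 h and 5897, 394 and 276 at 12 h. In VND6 cells it read 8237, 297 and 268 at 0 h and 8000, 337 and 240 at 12 h, and in SND1 cells 9284, 283 and 267 at 0 h and 5598, 360 and 202 at 12 h. Replicate 1 was the high array of every group, by a mean of 4.62 on the log2 scale or 24.6-fold, the largest mean gap of all tested probe sets. The sets of cemA, which encodes a plastid envelope protein, of ycf4, an assembly factor of photosystem I, of psaC, a photosystem I subunit, and of ndhD, an NDH subunit, followed with mean gaps of 3.61, 3.45, 3.40 and 3.38.

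The gap varied with the class of gene. It was over 1 in all 6 groups for 4 of 5 photosystem I sets, 4 of 6 of cytochrome b6f, 6 of 11 of the NDH complex and 8 of 15 of photosystem II. Among the genes of the plastid's own gene expression it was met by 1 of 9 sets of the large ribosomal subunit, 1 of 10 tested sets of the small subunit and 0 of 4 of the RNA polymerase, whose median gap was 1.44. psbN, a small protein needed to assemble photosystem II, is encoded on the strand opposite to its neighbours and ran the other way. Its set read 69.6, 477 and 394 in replicates 1, 2 and 3 of wt cells at 0 h, 181, 525 and 438 in VND6 cells and 107, 523 and 403 in SND1 cells. Replicate 1 was the low array in all 6 groups, by a mean of -2.12 with a range of -2.70 to -1.38. The sets of psbB, psbT, psbH, petB and petD, which lie on either side of psbN, had mean gaps of 2.22, 2.45, 2.84, 1.61 and 1.76.

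Because of this gap the results below rest on all replicates, and the outcome with the replicate number as a block is given beside a count or a named gene where it differs. Values from replicates 2 and 3 alone follow for the counts, the classes and the genes that passed. Replicate 1 deviated from its group mean in a like way at 0 h and 12 h of each line. A replicate 1 that stands apart by itself makes replicates 2 and 3 deviate together, whatever their number. The correlations below therefore do not by themselves show that replicates 2 and 3 are paired by number. The main limma fit did not pair same-numbered arrays, and only the fit with the block and the differences by replicate number did. The arrays of replicate 1 correlated at 0.380, 0.308 and 0.326 over time in wt, VND6 and SND1 cells and at -0.269 or less, -0.245 or less and -0.239 or less with other numbers. For replicate 2 of wt cells the same-number correlation of 0.255 lay below the highest with another number, 0.290, and replicates 2 and 3 of the other lines were at 0.188 to 0.207 against at most 0.196.

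The organelle sets as a whole took a smaller part of an array's signal at 12 h than at 0 h. The plastid sets held 2.14%, 1.89% and 1.62% of the summed signal in replicates 1, 2 and 3 of wt cells at 0 h and 1.80%, 1.27% and 1.11% at 12 h. In VND6 cells they held 2.83%, 1.59% and 1.26% at 0 h and 2.23%, 0.950% and 0.848% at 12 h. In SND1 cells they held 2.52%, 1.66% and 1.31% at 0 h and 1.79%, 1.101% and 0.926% at 12 h. The share was lower at 12 h in all 9 same-numbered pairs of arrays, while the groups overlapped in each line because replicate 1 was high at both times. The 12 h share was 71.2% to 84.1% of the 0 h share in the 3 pairs of replicate 1 and 59.9% to 70.8% in the 6 pairs of replicates 2 and 3. As in any bulk sample, fewer cells of a kind and less of the RNA per cell cannot be told apart.

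The 13 mitochondrial sets held far less of the signal, and their share was also lower at 12 h in all 9 pairs. That share in wt cells was 0.195%, 0.0998% and 0.0773% at 0 h and 0.191%, 0.0521% and 0.0386% at 12 h. In VND6 cells it was 0.173%, 0.106% and 0.0819% at 0 h and 0.172%, 0.0482% and 0.0332% at 12 h, and in SND1 cells 0.155%, 0.0919% and 0.0649%, then 0.0956%, 0.0489% and 0.0340%. In replicate 1 the 12 h share was 61.7% to 99.0% of the 0 h share, the lowest being SND1, and in replicates 2 and 3 it was 40.6% to 53.2%. Replicates 2 and 3 of every line were thus lower at 12 h by a wider margin than replicate 1, and no overlap remained between the times among them.

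**Figure D2:**
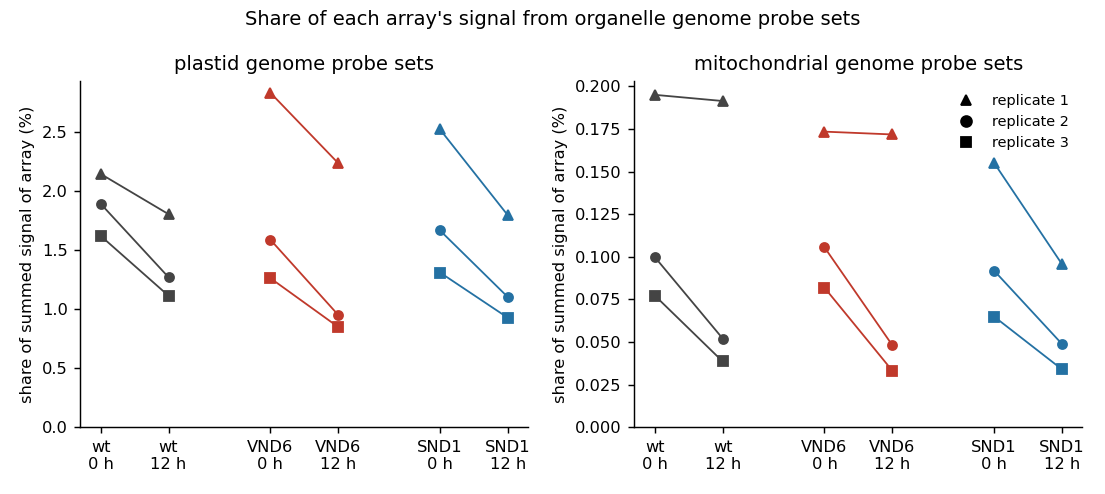
Each point is 1 array; the y axis is the percentage of the summed signal of all non-control probe sets that fell on plastid sets (left) or mitochondrial sets (right), starting at 0, by line and time, with same-numbered arrays joined. The 9 lines of each panel run downward from 0 h to 12 h, and replicate 1 lies above replicates 2 and 3 in every group.

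From 0 h to 12 h no tested member passed the test for a rise in any line, and a minority passed for a fall. In wt cells 12 of 127 fell, in VND6 cells 19 and in SND1 cells 11. The rule was limma's test at an adjusted p under 0.05 over all 15715 tested sets. Plastid genes made up 4, 10 and 4 of these falls in wt, VND6 and SND1 cells. The rest were mitochondrial, nuclear and unnamed sets, so these counts are not of organelle genes alone. Over all tested sets 22.0%, 24.7% and 22.8% fell and 32.1%, 28.8% and 27.8% rose in wt, VND6 and SND1 cells, so the members' falls, being 9.45% in wt and 8.66% in SND1 cells, were fewer than the background and none rose. At an unadjusted p under 0.05 the members still had 0 rises in each line and 20, 23 and 21 falls. The background at that cut is not given here, but it cannot be smaller than the shares above. The members' falls at the unadjusted cut were thus also fewer than the background. The spread that replicate 1 brought was wide: the median half-width of a member's confidence interval was 1.38 on the log2 scale, against 0.67 over all tested sets.

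With the replicate number as a block, 48 members passed for a fall in wt cells, 50 in VND6 cells and 50 in SND1 cells, beside 2, 0 and 0 for a rise. The background of that fit was 24.2%, 26.8% and 24.9% lower and 34.0%, 30.9% and 30.0% higher, so the members' falls lay above it. With replicates 2 and 3 alone, 55, 71 and 64 members passed for a fall, or 43.3%, 55.9% and 50.4%, against 29.9%, 33.4% and 31.2% of all tested sets. In that fit 4, 2 and 0 members passed for a rise, against 38.7%, 36.7% and 35.8%. Counting only sets whose arrays at 12 h all lay below those at 0 h gave 19, 11 and 31 members, against 24.1%, 26.7% and 30.3% of all tested sets. All arrays at 12 h lay above those at 0 h for 0, 1 and 0 members, against 35.1%, 31.4% and 36.1%. The count of members called in either direction rested on single arrays. It was 19 in wt cells without replicate 1 at 12 h, and 41 in VND6 cells without replicate 1 at 12 h. In SND1 cells it was 5 or 6 without replicate 1 or 2 at 0 h, or without replicate 2 or 3 at 12 h. The shares of all tested sets in these fits are not given here, so these counts have no background beside them.

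The direction was shared widely. The difference between 12 h and 0 h was below 0 for 99 of 127 members in wt cells, 114 in VND6 cells and 118 in SND1 cells. Its median over the members was -0.42, -0.53 and -0.63 on the log2 scale, where the median over all tested sets was 0.20, 0.08 and 0.08. In replicate 1 alone the members' medians were -0.14, -0.15 and -0.55, and in replicates 2 and 3 they were -0.53, -0.75 and -0.66. A fall was called in all 3 lines for 6 members, the plastid gene ndhA, the nuclear gene AT2G26500 and 4 unnamed sets, and in any line for 21. With the block these counts were 32 and 67, and the 32 included 20 plastid and 4 mitochondrial sets. The VND6 and SND1 values are set beside the wt values as each line's own measurement.

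**Figure D3:**
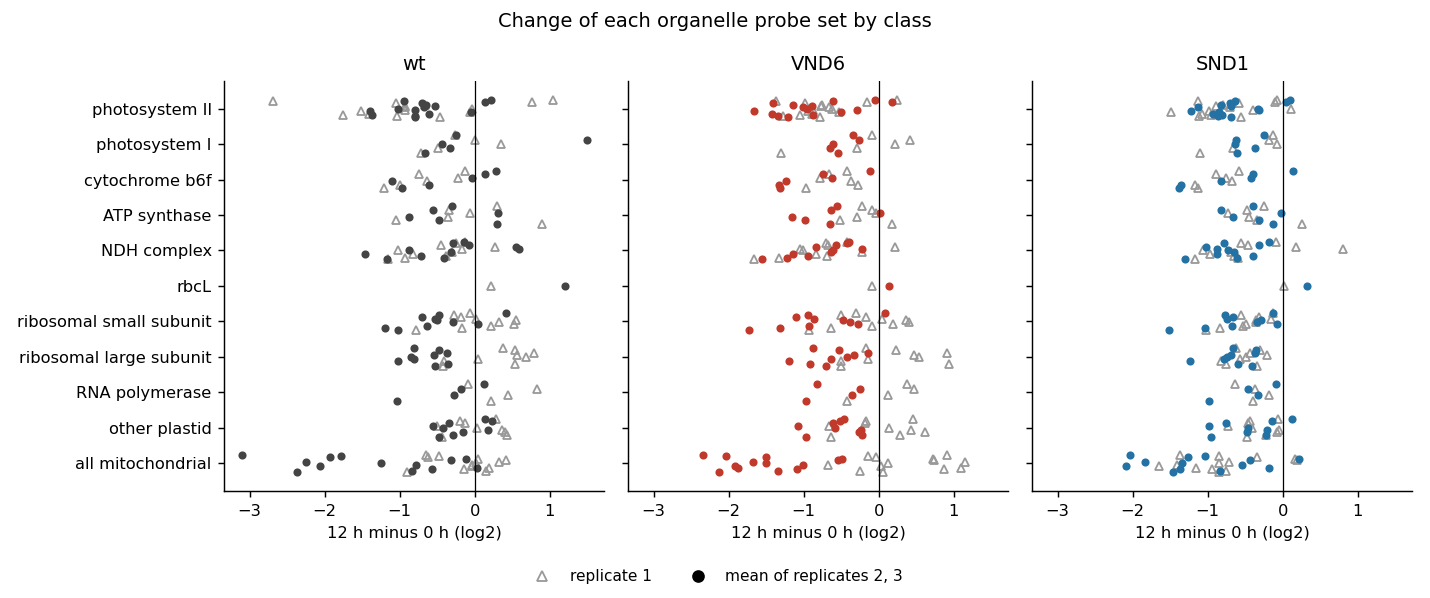
Each row is a class of plastid genes or all mitochondrial sets, with 1 panel per line; for each tested probe set the x axis gives the log2 signal at 12 h minus 0 h, as a triangle for replicate 1 and a filled circle for the mean of replicates 2 and 3. Most circles lie left of 0, and the mitochondrial triangles of wt and VND6 cells lie around 0, with medians of -0.04 and 0.12, while their circles have medians of -1.25 and -1.51.

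The plastid genes of photosystem II, the complex that splits water, had class medians of -0.76 in wt, -0.90 in VND6 and -0.80 in SND1 cells over 15 sets. Of the 15, 0, 4 and 2 fell by limma's test, 4, 4 and 3 had an unadjusted p under 0.05, and 10, 10 and 7 passed with the block. Over all tested sets 22.0%, 24.7% and 22.8% fell by limma's test, and 24.2%, 26.8% and 24.9% with the block. These shares are the background for the counts of the other classes below as well. For counts at an unadjusted p under 0.05 the background is not given, and is at least the share by limma's test. psbE, which encodes the alpha subunit of cytochrome b559, read 5323, 4479 and 4416 in wt cells at 0 h and 2591, 2585 and 2540 at 12 h. In VND6 cells it read 7182, 3337 and 2567 at 0 h and 2952, 1209 and 1105 at 12 h, and in SND1 cells 5358, 3744 and 3009, then 2476, 1904 and 1788. The arrays at 12 h lay below all those at 0 h in wt and SND1 cells, while in VND6 cells replicate 1 at 12 h lay above replicate 3 at 0 h.

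psbE differed by -0.88 (SE 0.37) in wt cells, with an adjusted p of 0.0546 by limma that the block brought to 0.00751. It fell by 1.32 in VND6 cells (SE 0.37, limma's adjusted p = 0.00654) and by 0.95 in SND1 cells (adjusted p = 0.0419). The gene lies next to psbF, psbL and psbJ, small photosystem II subunits that share a transcription unit with it, and these were the other photosystem II sets to pass in VND6 cells. There psbF fell by 1.07, psbL by 1.27 and psbJ by 1.01, with adjusted p of 0.00626, 0.00623 and 0.00581 by limma. In wt cells their differences were -0.68, -0.82 and -0.65, with adjusted p of 0.0619, 0.0591 and 0.0573 by limma, and all passed with the block (0.0427, 0.0323 and 0.0177). In SND1 cells psbJ fell by 0.81 (adjusted p = 0.0227) and psbF and psbL differed by -0.65 and -0.66 without passing in either fit.

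psbA and psbH were looked at after their values were seen. psbA, the gene of the D1 reaction centre protein, read 7832, 590 and 408 in wt cells at 0 h and 1215, 252 and 255 at 12 h. Replicate 1 was far above the other arrays at both times, and the groups overlapped. The difference was -1.52 (SE 1.37) and did not pass with all replicates (limma's adjusted p = 0.366), passed with the block (0.00165, and 0.0453 in VND6 cells), and was -2.68 in replicate 1 and -0.94 in replicates 2 and 3. psbH, a small subunit of the same complex, had differences of -1.44, -1.42 and -1.14 in wt, VND6 and SND1 cells; none passed with all replicates and all passed with the block.

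**Figure D4:**
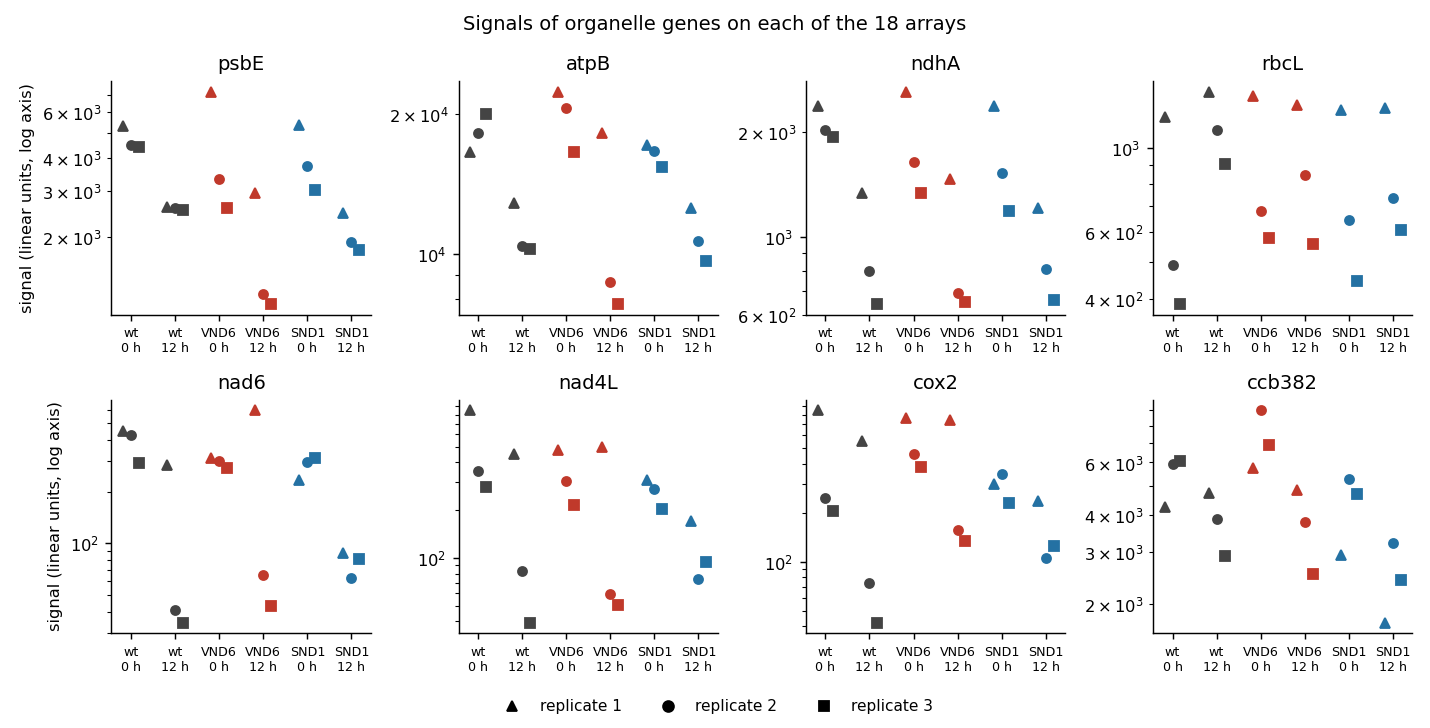
Each point is 1 of the 18 arrays; the y axis is the linear signal on a log axis, by line and time and with symbols for the replicate number, for the plastid genes psbE, atpB, ndhA and rbcL and the mitochondrial genes nad6, nad4L, cox2 and ccb382. psbE, atpB and ndhA lie lower at 12 h in wt cells without overlap, rbcL does not, and nad6 on replicates 2 and 3 drops from between 274 and 429 at 0 h to between 34.5 and 81.1 at 12 h.

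Photosystem I, which receives electrons from the cytochrome b6f complex, had medians of -0.25, -0.34 and -0.47 over 5 sets, and 0 of 5 passed by limma in any line, with 0 at an unadjusted p under 0.05. With the block 0, 1 and 0 passed for a fall, and psaA, a reaction centre subunit, passed for a rise in wt cells with a difference of 0.998 (block adjusted p = 0.0425 by limma). Its signals there were 136, 5.89 and 33.1 at 0 h and 136, 43.5 and 59.3 at 12 h. Replicate 1 read the same at both times, and replicate 2 at 0 h was the single low array.

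The 6 sets of cytochrome b6f, which passes electrons between the photosystems, had medians of -0.45, -0.83 and -0.66; 0 of 6 passed by limma with all replicates, with 0 at an unadjusted p under 0.05, and 3 of 6 in each line with the block. petL, a small subunit, read 5318, 1652 and 927 in wt cells at 0 h and 2299, 863 and 463 at 12 h. Every replicate was lower at 12 h than its number at 0 h, with differences of -1.21 in replicate 1 and -0.96 in the mean of the others, yet the groups overlapped. Its difference of -1.05 (SE 1.04) had an adjusted p of 0.415 by limma and one of 0.000305 with the block.

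Among the 6 sets of the plastid ATP synthase the medians were -0.30, -0.45 and -0.34, and 2, 2 and 0 fell, or 2, 2 and 2 with the block. Both that fell were the neighbours atpB and atpE, which encode the beta and epsilon subunits. atpB read 16594, 18163 and 19995 in wt cells at 0 h and 12906, 10394 and 10279 at 12 h. Its signals were 22342, 20569 and 16594, then 18199, 8721 and 7802 in VND6 cells, and 17145, 16680 and 15375, then 12530, 10677 and 9641 in SND1 cells. The times did not overlap in wt and SND1 cells and overlapped in VND6 cells through replicate 1 at 12 h. atpB fell by 0.71 in wt cells (SE 0.24, limma's adjusted p = 0.0201) and by 0.87 in VND6 cells (adjusted p = 0.00597), and differed by -0.59 in SND1 cells (adjusted p = 0.0512, or 0.0256 with the block).

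The signal of atpE was 20125, 19903 and 24785 in wt cells at 0 h and 9748, 15909 and 15930 at 12 h. All arrays at 12 h lay below all at 0 h in each of the 3 lines. atpE fell by 0.67 in wt cells (SE 0.19, limma's adjusted p = 0.00618) and by 0.83 in VND6 cells (adjusted p = 0.00132), and differed by -0.32 in SND1 cells (adjusted p = 0.160, or 0.171 with the block). The other set to pass with the block in SND1 cells was that of atpF, a stalk subunit, which differed by -0.70 (0.706 by limma with all replicates, 0.0339 with the block).

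The NDH complex carries electrons around photosystem I. Its 11 sets had medians of -0.31, -0.60 and -0.62, with 2, 2 and 1 falls and 5, 6 and 7 with the block. ndhA read 2366, 2027 and 1931 in wt cells at 0 h and 1333, 801 and 642 at 12 h. In VND6 cells it read 2602, 1641 and 1338, then 1460, 692 and 650, and in SND1 cells 2370, 1528 and 1189, then 1206, 812 and 661. Every number was lower at 12 h; the times did not overlap in wt cells, and in the others replicate 1 at 12 h exceeded replicate 3 at 0 h. ndhA fell by 1.25 in wt cells (SE 0.37, limma's adjusted p = 0.00855), by 1.04 in VND6 cells (adjusted p = 0.0250) and by 0.91 in SND1 cells (adjusted p = 0.0487). Its neighbour ndhI fell by 0.61 in wt cells (adjusted p = 0.0187) and by 0.86 in VND6 cells (adjusted p = 0.00200), and differed by -0.48 in SND1 cells (adjusted p = 0.0566, or 0.0186 with the block).

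By RefSeq order, all 4 plastid genes that fell in wt cells lay next to another that fell, as the pairs atpE and atpB, and ndhI and ndhA. In VND6 cells 8 of 10 did so, in 3 runs, those pairs and psbJ, psbL, psbF and psbE; rpl32 and rps4 stood alone. In SND1 cells 0 of 4 did (psbE, psbJ, ndhA and rps4). With the block the counts were 19 of 26, 24 of 30 and 17 of 27. How many would lie next to another if the same number of genes were placed at random was not computed. Neighbouring genes can share a transcript, so these sets are not independent of each other. The plastid genes that fell in any line were also ones in which replicate 1 stood close to the others: their mean gaps ran from -0.06 for atpE to 0.77 for ndhA, where the median over the plastid sets was 1.27. The main fit held no term for the replicate number, so a wide gap enlarges a set's SE and makes a call less likely. Small gaps among the called genes are thus in part set by the fit. Beyond the fits with the block and with replicates 2 and 3 alone, the part of that gap in the calls was not tested.

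rbcL, the gene of the large Rubisco subunit, was 1 of 18 plastid sets, of 76, whose difference in wt cells was above 0, and with psaA 1 of the 2 that passed for a rise there with the block. It read 1207, 490 and 386 in wt cells at 0 h and 1405, 1110 and 906 at 12 h. Its signals were 1371, 679 and 577, then 1292, 847 and 557 in VND6 cells, and 1256, 643 and 445, then 1269, 736 and 606 in SND1 cells. In wt cells each number was higher at 12 h, while the times overlapped in all 3 lines because of the high replicate 1. The difference was 0.87 (SE 0.48) in wt cells, which did not pass with all replicates (limma's adjusted p = 0.135) and passed with the block (0.00111). It was 0.06 in VND6 and 0.22 in SND1 cells, with adjusted p of 0.926 and 0.733. In replicates 2 and 3 the wt difference was 1.197, and in replicate 1 it was 0.22.

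Among the genes of the plastid's own gene expression, the 10 tested sets of the small ribosomal subunit had medians of -0.35, -0.61 and -0.55, with 0, 1 and 1 falls and 3, 4 and 3 with the block. rps4, a protein of that subunit, read 7802, 6716 and 5808 in wt cells at 0 h and 6430, 4985 and 4047 at 12 h, 10611, 9358 and 6706, then 7518, 4479 and 3771 in VND6 cells, and 8399, 8068 and 5956, then 5684, 4495 and 3704 in SND1 cells. The times overlapped in wt and VND6 cells and not in SND1 cells. rps4 fell by 0.80 in VND6 cells (limma's adjusted p = 0.0186) and by 0.70 in SND1 cells (adjusted p = 0.0377), and differed by -0.41 in wt cells (adjusted p = 0.206), where it passed with the block (0.0184).

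The 9 sets of the large ribosomal subunit had medians of -0.33, -0.30 and -0.65 with 0, 1 and 0 falls, and 2 in each line with the block. The fall was that of rpl32, a protein of that subunit, by 0.63 in VND6 cells (limma's adjusted p = 0.0228), from 8357, 7834 and 5681 to 5893, 3697 and 4576. In wt cells it differed by -0.49 and passed with the block only (0.0476). Replicate 1 at 12 h exceeded replicate 3 at 0 h, so the times overlapped. The 4 sets of the plastid-encoded RNA polymerase had medians of 0.01, -0.31 and -0.36 with 0 falls by limma in each line, 0 at an unadjusted p under 0.05, and 0, 1 and 1 with the block. The 9 other plastid sets, among them accD, a subunit of the acetyl-CoA carboxylase of fatty acid synthesis, had medians of -0.05, -0.34 and -0.35 with 0 falls by limma, 0, 1 and 0 at an unadjusted p under 0.05, and 2, 2 and 3 with the block. accD differed by -0.54, -0.94 and -0.90 and passed with the block only.

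The 13 mitochondrial sets had lower medians than the plastid ones, -0.82 in wt, -0.96 in VND6 and -0.97 in SND1 cells, against -0.34, -0.52 and -0.55. The difference was below 0 for 12, 13 and 12 of the 13, yet 1 set fell in each line; with the block 7, 6 and 9 passed for a fall. The medians in replicates 2 and 3 were -1.25, -1.51 and -1.26. In replicate 1 they were -0.04, 0.12 and -0.85, so that replicate 1 of wt and VND6 cells showed almost none of the difference seen in the other arrays. With replicates 2 and 3 alone, 8, 10 and 9 of the 13 passed for a fall. Whether the mitochondrial and plastid sets differ in their change was not tested.

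Complex I, the NADH dehydrogenase of the respiratory chain, had 5 of these sets. nad6, a membrane subunit, read 451, 429 and 295 in wt cells at 0 h and 286, 40.8 and 34.5 at 12 h. It read 314, 300 and 274, then 596, 65.5 and 42.9 in VND6 cells, and 235, 299 and 315, then 88.4, 63.2 and 81.1 in SND1 cells. All 12 h arrays lay below those at 0 h in wt and SND1 cells, while replicate 1 of VND6 cells was higher at 12 h. nad6 fell by 2.29 in wt cells (SE 0.77, limma's adjusted p = 0.0189) and differed by -1.26 in VND6 cells (adjusted p = 0.181) and -1.81 in SND1 cells (adjusted p = 0.0594). With the block the SND1 difference passed too (0.0298) and the VND6 difference did not (0.116). The wt difference was -0.65 in replicate 1 and -3.11 in replicates 2 and 3.

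nad4L, another membrane subunit, read 854, 352 and 280 in wt cells at 0 h and 453, 83.3 and 39.3 at 12 h. Its signals were 476, 308 and 215, then 497, 59.7 and 51.1 in VND6 cells, and 311, 274 and 204, then 171, 74.0 and 94.0 in SND1 cells. The times overlapped in wt and VND6 cells through replicate 1 and did not overlap in SND1 cells. The differences of -1.88, -1.40 and -1.25 did not pass with all replicates (limma's adjusted p = 0.0621, 0.160 and 0.216) and passed with the block (0.00433, 0.0243 and 0.0420). nad9, a subunit of the arm that takes up NADH, and nad4, a membrane subunit, had differences of -1.40, -0.73 and -1.47, and of -0.82, -0.96 and -1.18, in wt, VND6 and SND1 cells. With the block only, nad9 passed in wt and SND1 cells and nad4 in all 3 lines.

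cox2, a subunit of cytochrome c oxidase and the only complex IV member, read 853, 248 and 206 in wt cells at 0 h and 550, 74.3 and 42.1 at 12 h. Its signals were 767, 458 and 384, then 745, 157 and 134 in VND6 cells, and 298, 344 and 229, then 234, 104 and 125 in SND1 cells. Replicates 2 and 3 were lower at 12 h in every line, and replicate 1 kept the times overlapping. The differences of -1.50, -1.02 and -0.96 did not pass (limma's adjusted p = 0.124, 0.298 and 0.338), and the block passed the first of them only (0.0160).

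The 4 genes for maturing cytochrome c, which attach haem to it, included the mitochondrial gene that fell in both transformed lines. ccb382, also known as ccmFN1, read 4256, 5917 and 6063 in wt cells at 0 h and 4729, 3855 and 2890 at 12 h. It read 5767, 9018 and 6867, then 4861, 3787 and 2515 in VND6 cells, and 2913, 5270 and 4692, then 1723, 3205 and 2397 in SND1 cells. All 12 h arrays lay below those at 0 h in VND6 cells, the times overlapped in the other lines, and replicate 1 of this set was not the highest at 0 h. ccb382 fell by 0.98 in VND6 cells (SE 0.30, limma's adjusted p = 0.0119) and by 0.81 in SND1 cells (adjusted p = 0.0337), and differed by -0.51 in wt cells (adjusted p = 0.166). ccb452, the gene of ccmFC, differed by -1.35, -1.40 and -0.97 and passed in each line with the block only. ccb206, the gene of ccmB, had differences of -0.06, -0.08 and 0.20.

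matR, a maturase that helps remove introns from mitochondrial transcripts, read 253, 255 and 189 in wt cells at 0 h and 246, 47.4 and 51.1 at 12 h. Its differences of -1.39, -1.27 and -1.94 passed in each line with the block only. Replicate 1 of wt cells did not differ between the times, by -0.04, where replicates 2 and 3 differed by -2.06. orfX, also known as mttB, which encodes a component of a protein translocase, had differences of -0.54, -0.90 and -0.83, of which the last 2 passed with the block only.

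With replicates 2 and 3 alone, which leave 2 arrays a group, the class medians of the plastid sets took another order. Photosystem II had -0.71, -0.96 and -0.70 in wt, VND6 and SND1 cells, cytochrome b6f had -0.33, -0.99 and -0.62, and the NDH complex had -0.32, -0.64 and -0.73. The lowest was thus photosystem II in wt, cytochrome b6f in VND6 and the NDH complex in SND1 cells. Photosystem I had -0.32, -0.55 and -0.61 and the ATP synthase -0.39, -0.64 and -0.36. The small ribosomal subunit had -0.52, -0.90 and -0.67, the large one -0.55, -0.63 and -0.66, and the RNA polymerase -0.23, -0.59 and -0.40.

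In the same fit, psbE, psbF, psbL, psbJ, atpB, atpE, ndhA, ndhI and rps4 passed for a fall in all 3 lines, and rpl32 in wt and VND6 cells, by limma and beside the background for replicates 2 and 3 given above. Among the mitochondrial genes nad6, nad4L, nad9, nad4, cox2, ccb382, ccb452 and matR passed in all 3 lines. rbcL passed for a rise in wt cells (adjusted p = 0.000258) and not in VND6 (0.601) or SND1 cells (0.218).

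The response of a transformed line beyond that of wt cells was measured as the difference of the time differences; both comparisons share the wt arrays. No member passed in either line by limma with all replicates, where 13.8% of all tested sets passed for VND6 and 5.87% for SND1. At an unadjusted p under 0.05 the members had 0 and 1. The median half-width of a member's interval was 1.95, so for a typical member a further change below that size was not detectable here, and the result does not show that the lines acted alike. psbE, for example, had a VND6 response beyond wt of -0.44, with an interval of -1.55 to 0.66.

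With the block, rbcL passed for VND6 with a difference of -0.81 (block adjusted p = 0.0479, and 0.464 by limma without the block, with an interval of -2.24 to 0.62), and 0 passed for SND1, against 18.1% and 8.48% of all tested sets. With replicates 2 and 3 alone 7 and 9 members passed, against 48.3% and 34.8%. rbcL was among them, with -1.06 for VND6 (limma's adjusted p = 0.0124) and -0.88 for SND1 (adjusted p = 0.0424). The medians over the members, -0.16 and -0.21, stood beside -0.22 and -0.20 over all tested sets.

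Set against wt cells at one time, the transformed lines differed in few members. VND6 cells at 0 h had 1 member, against 8.51% of all tested sets, and SND1 cells at 0 h had 0, with 1 at an unadjusted p under 0.05, against 2.34%. At 12 h each line had 1, in both cases an unnamed set, against 27.1% and 12.8%. With the block the counts were 1, 1, 4 and 1, against 12.2%, 3.71%, 32.1% and 16.6%, and with replicates 2 and 3 alone they were 22, 11, 31 and 17, against 48.0%, 28.7%, 61.2% and 46.6%. No plastid or mitochondrial gene passed with all replicates. psbE, at -0.70 in VND6 cells at 12 h, passed with the block only (block adjusted p = 0.0441 by limma).

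Replicate 1 and the other replicates ran opposite ways in the comparison of VND6 with wt cells at 12 h. The difference was below 0 for 7 of 76 plastid sets in replicate 1 and for 72 of 76 in replicates 2 and 3. The medians were 0.32 and -0.44. With replicates 2 and 3 alone 21 plastid sets, or 27.6%, passed as lower in VND6 cells and 0 as higher. Over all tested sets 39% passed as lower and 22.2% as higher in that fit, with a median of -0.27. The share of plastid sets that were lower was thus below that of all tested sets. For psbE the difference was 0.19 in replicate 1 and -1.15 in replicates 2 and 3. A split of this kind was present at 0 h too, before estrogen. There the plastid share of the signal in replicate 1 was 2.83% in VND6 and 2.14% in wt cells. In replicates 2 and 3 it was 1.59% and 1.26% in VND6 cells against 1.89% and 1.62% in wt cells.

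Nuclear genes for the same complexes were read from lists of partners, of which a part was named on the array and tested. Of the 28 nuclear genes listed for mitochondrial respiration, 12 were tested. From 0 h to 12 h 7, 9 and 8 of them rose in wt, VND6 and SND1 cells and 0 fell, with medians of 0.97, 1.03 and 1.03. Over all tested sets 32.1%, 28.8% and 27.8% rose. CYTC1, a cytochrome c, rose by 2.01, 1.75 and 1.92, with limma's adjusted p of 5.9e-07, 3.21e-06 and 1.42e-06. MPPalpha1, a subunit of the complex III core that also cuts mitochondrial targeting sequences, rose by 1.58 in wt cells (adjusted p = 2.63e-06), and COX5B2, a nuclear subunit of the oxidase that holds cox2, by 1.098 (adjusted p = 1.67e-05). The mitochondrial sets of the same arrays had the medians of -0.82, -0.96 and -0.97 given above. The 2 sides were not tested against each other.

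Of the 44 nuclear genes listed for photosynthesis, 5 were tested and 3 fell in each line, against 22.0%, 24.7% and 22.8% of all tested sets. LHCB4.1, an antenna protein of photosystem II, differed by -6.32, -5.62 and -5.85, PSAN, a photosystem I subunit, by -5.04, -4.57 and -4.92, and RCA, the activase of Rubisco, by -4.44, -4.41 and -3.63, each with an adjusted p of at most 4.19e-06 by limma. PSBW and ATPC1 did not pass in any line. None of the organelle-encoded photosystem sets had a difference as low as these. These lists were taken with earlier results of the same arrays known and are no independent evidence of a direction.

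**Figure D5:**
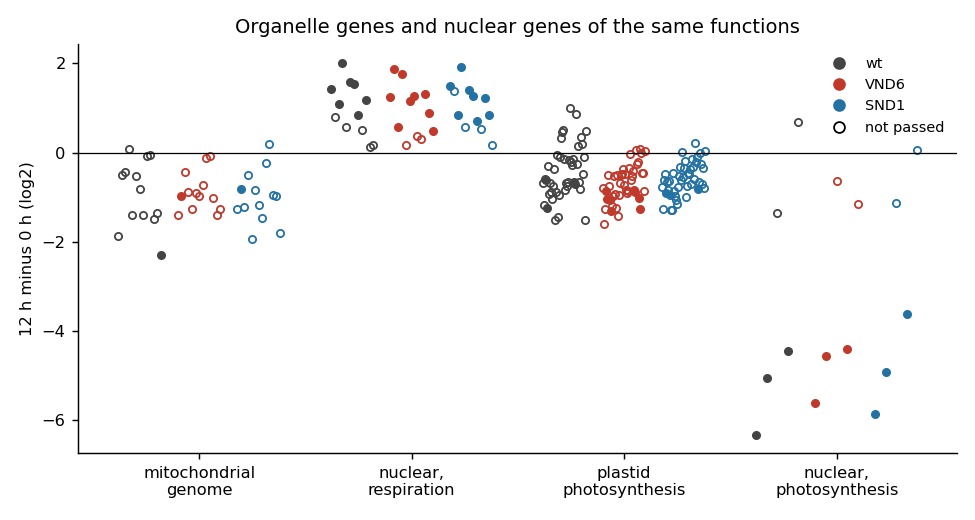
Each point is 1 tested probe set of the mitochondrial genome, of the nuclear respiration list, of the plastid genes for photosynthesis or of the nuclear photosynthesis list, coloured by line; the y axis is the log2 signal at 12 h minus 0 h, and filled points passed limma's test with all replicates. The nuclear respiration genes have medians of 0.97, 1.03 and 1.03, the mitochondrial sets of -0.82, -0.96 and -0.97, and 3 nuclear photosynthesis genes of each line lie at -3.63 or below.

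RPOTmp, a nuclear-encoded RNA polymerase of mitochondria and plastids and the only one tested of 9 listed polymerases and sigma factors, rose by 1.85 in wt cells (limma's adjusted p = 0.00327) and by 1.88 in VND6 cells (adjusted p = 0.00302), and differed by 0.97 in SND1 cells (adjusted p = 0.0979). The mitochondrial polynucleotide phosphorylase, an enzyme that degrades RNA and the only one tested of 5 listed for RNA processing and decay, rose by 4.23, 2.04 and 2.74 in the 3 lines. Its rise was smaller in VND6 than in wt cells, by -2.19 (limma's adjusted p = 0.0419). MCM7, a DNA replication factor and the only one tested of 3 markers of dividing cells, rose by 3.74, 2.02 and 1.05. Its direction was thus opposite to the members' median change in all 3 lines, and a link between the changes was not tested. None of the 5 xylem markers, the 11 plastid nucleoid proteins or the 15 nuclear plastid ribosomal proteins was among the named tested sets.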

How the data were processed

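RNA of 18 samples of cultured Arabidopsis cells, 6 groups of 3, had been hybridised to ATH1 arrays as biotin-labelled cRNA. The authors' deposited table holds linear intensity, 1 signal for each probe set on each array. Per the submitters' processing notes GCOS was used; the version is not given in the sources used here. A trimmed mean, which leaves out 2% of values at each end, hardly varied over the arrays, so the table was used as scaled. Signals of dim sets are noisy, and the pseudocount understates their folds.

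To each value 4.32, the table's 10th percentile, was added before taking log2; 64 control sets were left out, and 15715 of 22810 sets passed the filter given in the report. In the array's annotation 13513 probe sets have 1 gene, 503 several and 8730 none, and symbols and gene order come from RefSeq's TAIR10.1. Group means were fitted on all 18 arrays with limma 3.58.1 in R 4.3.3 (lmFit, eBayes with an intensity trend), with 9 contrasts, 2-sided p-values adjusted by Benjamini-Hochberg over all tested sets, and calls at an adjusted p under 0.05. The fit was tested on simulated data.

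The members and the lists were chosen with earlier results of these data known. Named genes are, among members that passed with 1 gene, the 5 largest each way in each change over time or response beyond wt and the 3 largest each way elsewhere, the 5 brightest, and up to 4 of each class by the adjusted p in wt cells; others are said to be chosen after their values were seen. For pairs of arrays with the same number, deviations from the group mean were correlated. Over the times of one line the coefficients were 0.255 to 0.380 (wt), 0.205 to 0.308 (VND6) and 0.188 to 0.326 (SND1). For wt with SND1 cells they were 0.304 to 0.486 at 0 h and 0.228 to 0.451 at 12 h. Each was over 0.1, the limit set for pairing, although replicates 2 and 3 are hardly told apart by it. Deviations from a group mean cancel within the group, so a replicate 1 that stands apart can by itself lift replicates 2 and 3 over the limit. Passing it therefore does not by itself show pairing by number. The main fit held no term for the number, and pairs entered only through the replicate block and differences of same-numbered arrays. For wt with VND6 cells the coefficients were 0.023 to 0.186 at 0 h and 0.0918 to 0.172 at 12 h, not all over the limit. All these coefficients are over all tested sets. Over the members alone, those of wt with VND6 cells were 0.577 to 0.79 at 0 h and 0.682 to 0.836 at 12 h. Replicate 2 correlated more highly there with another number, at 0.611 and 0.734. The replicate block and the differences of same-numbered arrays were used for VND6 against wt cells too. The alternatives were quantile normalization, scaling on sets outside the block, other filters and pseudocounts, no trend, a fit of the compared arrays alone, the replicate block, replicates 2 and 3 alone or averaged as 1, and leaving out each array in turn.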

Additional observations from a re-analysis of the deposited data

How the results depend on the processing

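With the replicate block 50, 50 and 50 members passed from 0 h to 12 h in wt, VND6 and SND1 cells, 1 in the VND6 response beyond wt, 1 in SND1 against wt at 0 h and 4 in VND6 against wt at 12 h. With replicates 2 and 3 only, the time counts were 59, 73 and 64, the responses beyond wt 7 (VND6) and 9 (SND1), and the comparisons with wt 22 and 11 at 0 h and 31 and 17 at 12 h. With replicates 2 and 3 averaged and counted as 1, the time counts were 4, 3 and 2, and those against wt were 0 for VND6 at 0 h and 0 for both lines at 12 h. Fitting only the arrays compared gave 10 in VND6 and 29 in SND1 cells over time, and 0 for both lines against wt at 12 h. A pseudocount 4 times larger gave 2 (VND6) and 1 (SND1) against wt at 0 h. For VND6 against wt at 12 h, quantile normalization, no filter and no intensity trend each gave 0, and for SND1 at 12 h no filter and the filter at the 60th percentile gave 0. Scaling on sets outside the block gave 13, 19 and 10 over time. All counts in this section are of members called in either direction. Shares of all tested sets are given above for the replicate block and for replicates 2 and 3 alone. For the other settings, and for the fits with 1 array left out, they are not given. Those counts therefore cannot be placed above or below a background.

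Leaving out 1 array in turn gave 9 to 19 members in wt, 14 to 41 in VND6 and 5 to 14 in SND1 cells over time, and 0 to 1 in the VND6 response beyond wt. It gave 0 to 4 and 0 to 10 in VND6 against wt at 0 h and 12 h, and 0 to 2 in SND1 against wt at 12 h. The VND6 response had its 1 without wt replicate 1 at 12 h. VND6 against wt at 0 h had 4 and 2 without replicate 1 of wt or of VND6, and 0 without wt replicate 2 or 3. At 12 h it had 6 and 10 without replicate 1 of wt or of VND6, and 0 without wt replicate 2 or VND6 replicate 2 or 3. SND1 against wt at 12 h had 2 without wt replicate 1, and 0 without wt replicate 2 or 3 or SND1 replicate 1 or 2. The cause was not tested.

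Some small wt differences that did not pass changed sign. rpoB was -0.17 under quantile normalization, petN 0.14 and rpoC1 -0.18 with replicates 2 and 3 only, and rps3 0.0173, clpP 0.0687, rpl16 0.0073 and rpoC2 0.0801 with those averaged. With 1 array left out, the wt differences ran from -0.52 to 0.33 for ccb206, -1.75 to 0.43 for orfX, -1.78 to 0.45 for psaC, -0.55 to 0.0885 for psaB, -0.86 to 0.36 for psaI, -0.39 to 0.0834 for petN and -1.45 to 0.40 for atpF. They ran from -0.32 to 0.0892 for rps3, -0.0644 to 0.43 for rps16, -0.54 to 0.17 for rpl16, -0.30 to 0.14 for clpP, -0.27 to 0.59 for matK and -0.56 to 0.0261 for ycf3. For rpoB the range was -0.34 to 0.52, for rpoC1 -0.47 to 0.58, for rpoC2 -0.48 to 0.29 and for AT2G26630 -0.95 to 2.17. No named gene that passed changed sign under any alternative. With 3 arrays a group and 1 of them apart, differences under about 1.38 on the log2 scale could often not be detected with all replicates.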

Other observations

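Among the 5 other tested nuclear genes of chromosome 2 that lie in the same run of ids, 2 fell in each line from 0 h to 12 h. AT2G26500, which encodes a small subunit of the cytochrome b6f complex in the nucleus, read 227, 260 and 274 in wt cells at 0 h and 55.9, 39.8 and 17.97 at 12 h. It read 52.1, 62.5 and 60.7, then 33.2, 7.93 and 8.32 in VND6 cells, and 123, 76.3 and 63.5, then 39.7, 35.1 and 15.6 in SND1 cells. The times did not overlap in any line, and replicate 1 was not apart from the others at 0 h in wt cells. It fell by 2.72 in wt cells (SE 0.47, limma's adjusted p = 0.00013), by 1.80 in VND6 cells (adjusted p = 0.00413) and by 1.45 in SND1 cells (adjusted p = 0.0170). It was also the member that differed between the lines at 0 h, by -2.04 in VND6 against wt cells (adjusted p = 0.0148) and, passing with the block only, by -1.54 in SND1 cells (block adjusted p = 0.0487 by limma, 0.108 without the block).

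AR781, a nuclear gene, read 3983, 327 and 362 in wt cells at 0 h and 179, 112 and 49.7 at 12 h, and 1303, 2888 and 3075, then 75.2, 873 and 664 in VND6 cells. The times did not overlap, and replicate 1 of wt cells at 0 h was high by itself. It fell by 2.91 in wt cells (limma's adjusted p = 0.0237) and by 2.65 in VND6 cells (adjusted p = 0.0374), and differed by -2.47 in SND1 cells (adjusted p = 0.0537). AT2G26600 fell by 1.11 in SND1 cells (adjusted p = 0.000764), from 407, 340 and 297 to 163, 146 and 163, and differed by -0.55 and -0.51 in wt and VND6 cells, of which the first passed with the block only (block adjusted p = 0.0449 by limma).

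Of the 5 tested AT2G07 loci 0 passed by limma in any line, and 2, 1 and 0 passed for a fall with the block. AT2G07732 read 118, 116 and 106 in wt cells at 0 h and 209, 4.5 and 2.71 at 12 h, so that replicate 1 differed by 0.80 and the others by -3.87. Of the 28 tested unnamed sets 5, 6 and 4 fell in wt, VND6 and SND1 cells, and 9, 10 and 11 passed for a fall with the block, with medians of -0.36, -0.49 and -0.67.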
